A study of Mus musculus with 15 samples.

Results

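Homologous recombination and Fanconi anaemia genes were followed in B16-F10 cells, a pigmented mouse melanoma line, by RNA sequencing. The set was a list of 31 gene symbols, and a row of the count table belonged to it where its Ensembl identifier carries that symbol in GENCODE M21. All 31 were found among the 46078 rows, and all 31 passed the low-count filter, as did 15152 rows of the whole table. The study had 15 libraries in 5 groups of 3. Of the compound groups, 1 received the vehicle DMSO, another GSK126 at 2 µM and the last DZNep, also at 2 µM. In the parallel siRNA arm, they received a scrambled siRNA (scr) or an siRNA to Ezh2 (siEzh2). GSK126 inhibits EZH2, the histone methyltransferase of the Polycomb repressive machinery. DZNep (3-deazaneplanocin A) inhibits S-adenosylhomocysteine hydrolase and so reaches many methyltransferases. All groups were taken as the same line, with no other allele or agent named in the labels. Library titles name B16-F10, except those of the DZNep group, which name B16 only. The sources used here give neither the treatment times nor the siRNA sequences.

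Homologous recombination repairs a broken chromosome by copying the intact sister. The MRE11-RAD50-NBN complex, CtIP (encoded by Rbbp8) and EXO1 trim the broken end, BRCA1, PALB2 and BRCA2 prepare the bared strand for pairing with help from a group of paralog proteins (encoded by Rad51b, Rad51c, Rad51d, Xrcc2 and Xrcc3), RAD54 proteins drive strand exchange, and BLM, MUS81-EME1 and SLX4 resolve the joined molecules. The Fanconi pathway feeds DNA crosslinks into the same route, through a core complex whose ligase FANCL marks the FANCD2-FANCI clamp with ubiquitin. Many of these genes are transcribed mainly in cycling cells before and during DNA replication, so their RNA levels are read beside those of the cell cycle genes.

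Total counts per library lay between 33299524 and 64545747. Levels are given in CPM (read counts brought to a common library size scaled with TMM), and changes as log2 values ± standard error with adjusted p from 1 edgeR quasi-likelihood fit of all libraries. Ezh2 stood at 37.6, 39.9 and 41.3 CPM in the siEzh2 libraries and at 215, 227 and 215 CPM in scr, so the knockdown libraries fitted their label. Melanocyte markers (7 listed, among them Pmel, Mlana and Dct) summed to between 18904 and 25625 CPM in every library. Of 10 blood and endothelial markers only Lyz2 passed the count filter, at no more than 0.424 CPM, and Cd3e, Itgam, Adgre1, Cdh5 and Hba-a1 had 0 counts in all libraries. Of 8 fibroblast markers 5 passed, and their sum was 23.8 to 25.6 CPM in DMSO and 62.6 to 73 CPM with DZNep, mostly Postn; its part in the results was not tested. In DMSO replicate 3, longer transcripts read lower than in the other DMSO libraries. The rank correlation of its deviation with exon length was −0.58 across the 31 genes and −0.32 across 15086 genes. In the other libraries the correlation lay between −0.15 and 0.26 across all genes. Across the 31 it was 0.54 in DMSO replicate 1, 0.40 in DMSO replicate 2 and −0.51 in siEzh2 replicate 2. The rest lay between −0.35 and 0.34. Each library was set against the other 2 of its group, so values within a group depend on each other. Genes are not independent replicates, so these values only describe the libraries.

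Per length of exon, the 31 genes spanned a wide range of levels in DMSO, with a median of 3.99 CPM per kb. Brca1, the ubiquitin ligase subunit that promotes resection, stood at 33.7 ± 2 CPM per kb (SD, n = 3) and Rad50, the ATPase that tethers broken ends, at 32.3 ± 3.53. These levels did not differ beyond their spread. Nbn, the signalling subunit of the same end-binding complex, followed at 12.1 ± 0.35 CPM per kb, then Fancd2 at 9.83 ± 0.409 and the helicase gene Brip1 at 9.35 ± 1.14, which overlapped. Between 2 and 10 CPM per kb lay 22 genes, and 6 lay under 2. The lowest was Rad51b, of the paralog group, at 0.664 ± 0.0691, below Fancc (1.05 ± 0.14) and Palb2 (1.08 ± 0.113), which did not differ beyond their spread.

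**Figure D1:**
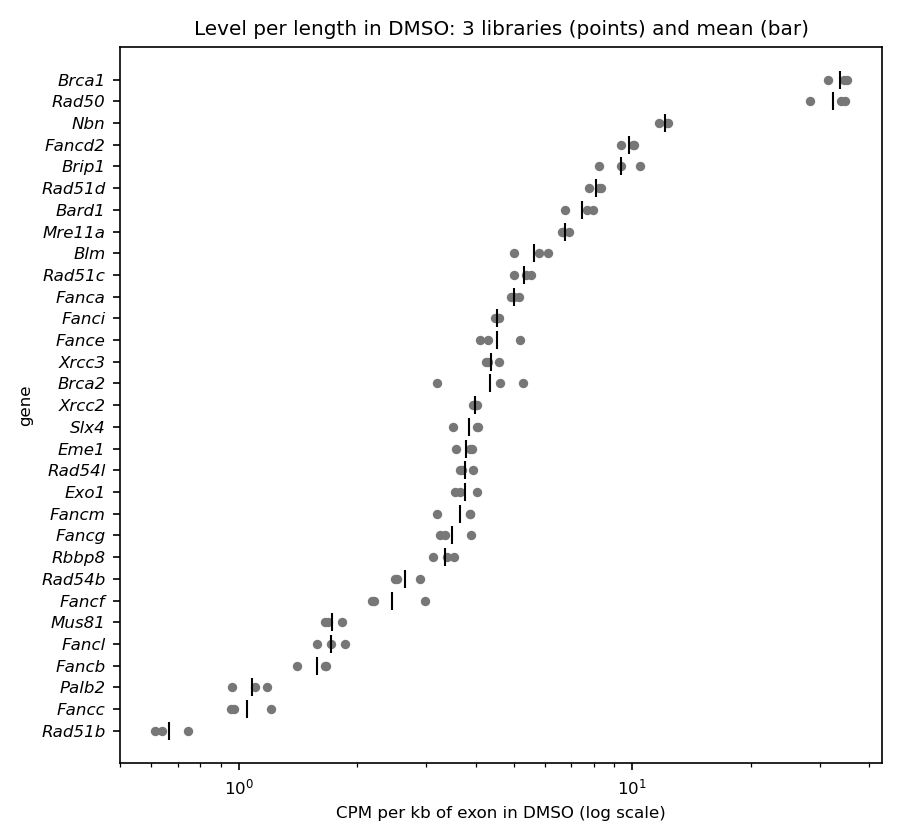
Level of each of the 31 genes in DMSO, in CPM per kb of exon on a log axis, with 3 libraries as grey points and their mean as a bar. Brca1 and Rad50 lie at 33.7 and 32.3, apart from the rest, and Rad51b is lowest at 0.664.

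The start regions of 5 genes are shown as examples of different responses. Brca1 moved in every comparison, Xrcc3 and Rad54l rose with DZNep while Rad51c fell, and Fanca was called with GSK126, with siEzh2 and in scr but not with DZNep. Sequences are from RefSeq on GRCm38.p6, read 5′ to 3′ toward the transcription start, and stop at the start or at the nearest annotated exon of a neighbour. Capitals mark the letters CCAAT, the recognition word of the factor NF-Y, or their complement ATTGG. All 5 lie on the minus strand, at chr11:101551956-101552148 for Brca1, chr12:111813880-111814129 for Xrcc3, chr4:116123691-116123839 for Rad54l, chr11:87404955-87405064 for Rad51c and chr8:123318577-123318826 for Fanca.
Brca1: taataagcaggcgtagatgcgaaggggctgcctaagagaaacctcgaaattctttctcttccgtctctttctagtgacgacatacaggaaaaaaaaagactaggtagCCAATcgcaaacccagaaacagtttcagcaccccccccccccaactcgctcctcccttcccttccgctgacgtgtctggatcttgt
Xrcc3: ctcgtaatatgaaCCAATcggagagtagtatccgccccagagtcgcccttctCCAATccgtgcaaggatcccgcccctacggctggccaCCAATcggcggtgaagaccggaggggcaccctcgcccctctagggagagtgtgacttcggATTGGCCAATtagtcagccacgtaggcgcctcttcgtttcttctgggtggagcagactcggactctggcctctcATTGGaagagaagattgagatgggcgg
Rad54l: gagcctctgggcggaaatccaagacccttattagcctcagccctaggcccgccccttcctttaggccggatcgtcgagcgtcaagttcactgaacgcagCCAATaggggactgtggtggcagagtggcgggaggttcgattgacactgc
Rad51c: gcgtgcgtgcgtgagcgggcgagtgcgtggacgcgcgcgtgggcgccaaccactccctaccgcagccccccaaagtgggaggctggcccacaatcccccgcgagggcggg
Fanca: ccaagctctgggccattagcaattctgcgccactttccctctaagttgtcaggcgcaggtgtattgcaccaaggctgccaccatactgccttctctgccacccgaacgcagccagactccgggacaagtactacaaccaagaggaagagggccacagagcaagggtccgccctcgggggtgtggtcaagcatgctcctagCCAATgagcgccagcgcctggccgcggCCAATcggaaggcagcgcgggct
The Brca1 stretch holds 1 such word, 86 bases before the start, Rad54l holds 1 at 50 bases, Fanca holds 2 at 50 and 23 bases, Xrcc3 holds 6, and the Rad51c stretch holds none. The stretches differ in length, at 193 bases for Brca1, 250 for Xrcc3 and Fanca, 149 for Rad54l and 110 for Rad51c. A link between these words and the responses was not tested.

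RefSeq promoter entries were found for 23 of the 31 genes, and the 250 bases before the start nearest the GENCODE gene end were searched on both strands. The window lay 65533 bases from the GENCODE gene end for Fancc, 2092 for Slx4 and at most 949 for the others. CCAAT was present in 14 of 23 (60.9%), against 33.8% of all 32851 promoters and 35.4% of the 21263 of coding genes. The E2F words TTTGGCGC, TTTCCCGC, TTTCGCGC and TTTGCCGC were found in 3 of 23 (Bard1, Brca2 and Fancg, 13%), against 1.86% of all promoters. The word TTTGAA, found in the cell cycle element CHR, was in the Bard1 window alone (4.35%), against 16% of all promoters. The shares of all promoters count every entry, without the choice of start made for the 23 genes. None of the words searched contains another, and a match describes the letters only.

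DZNep moved most of the set. Of 31 genes 18 rose and 5 fell (edgeR, adjusted p under 0.05), in a comparison that called 62.3% of all genes tested, 31.2% upward and 31% downward. The median log2 change of the 31 was 0.27, against 0.00 over all genes tested. Levels are relative to the total of each library, so a shift shared by all genes would not be seen. The 18 genes that rose each had all 3 DZNep libraries above all 3 DMSO libraries, a separation seen upward in 31.4% of all genes tested. Downward the libraries were separate for 4 of the 31, against 31.6% of all genes; those of Fance overlapped. Of 7 melanocyte markers 2 were higher and 3 lower with DZNep, and 3 of 5 fibroblast markers were higher; their part in the result was not tested. In bulk RNA, a change in the share of cells that express a gene and a change per cell cannot be told apart.

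Brca1 (ENSMUSG00000017146, chromosome 11, 101488764 to 101551955, GRCm38) had the largest increase of the set. It read 300.3, 268 and 294 CPM in DMSO and 636, 649.7 and 662 CPM with DZNep. The groups were far apart, a 2.26-fold rise (log2 1.18 ± 0.06, adjusted p = 6.11e-13). Its ligase partner Bard1 rose 1.21-fold (0.27 ± 0.06, adjusted p = 0.000476), from 42.2 ± 3.64 to 50.9 ± 1.27 CPM (SD, n = 3). Palb2, which bridges BRCA1 and BRCA2, fell (−0.30 ± 0.11, adjusted p = 0.0242), and that call was lost without DMSO replicate 2 or DZNep replicate 3 (adjusted p up to 0.111). Brca2, which acts on the bared strand, stood at 0.06 ± 0.14 (95% interval −0.22 to 0.34); its DMSO libraries were spread, at 72, 63.1 and 43.5 CPM, the lowest in DMSO replicate 3. Brip1 stood at 0.15 ± 0.07 (adjusted p = 0.0598).

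All 5 genes of the paralog group, whose proteins assist strand pairing, were called with DZNep, 4 upward. Of all genes tested 62.3% were called in this comparison, 31.2% upward, so a count over 5 genes says little about the group. Xrcc2 (chromosome 5, 25689812 to 25705825) read 20.5, 20.9 and 21 CPM in DMSO and 36.1, 36.7 and 37 CPM with DZNep. The libraries of each group lay close together, and the rise was 1.76-fold (0.82 ± 0.05, adjusted p = 8.43e-11). Xrcc3 rose from 11.7, 12.6 and 11.8 CPM to 20, 20.4 and 22 CPM (0.79 ± 0.07, adjusted p = 1.4e-08). Rad51d rose from 30.6, 28.8 and 30.9 CPM to 42.9, 42.5 and 49.2 CPM (0.58 ± 0.06, adjusted p = 1.39e-07). The low-level Rad51b rose 1.51-fold (0.60 ± 0.14, adjusted p = 0.000868). Rad51c, the paralog shared by both known paralog complexes, went the other way. It read 21.9, 23.5 and 24.3 CPM in DMSO and 18.1, 17.1 and 17.3 CPM with DZNep, with no overlap (−0.41 ± 0.07, adjusted p = 2.72e-05).

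Of the motor genes, Rad54l rose. Rad54l, which encodes the translocase that drives strand exchange, read 28.5, 30.3 and 28.2 CPM in DMSO and 51.2, 51 and 48.6 CPM with DZNep (1.73-fold, 0.79 ± 0.05, adjusted p = 1.41e-10). Its relative Rad54b stood at −0.12 ± 0.09 (95% interval −0.30 to 0.07). Exons of Lrrc41 on the other strand cover 15.4% of the Rad54l exon bases, and Fsbp on the same strand covers 35.8% of those of Rad54b, so part of both counts is uncertain.

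Among the 8 Fanconi core genes, DZNep raised 3 and lowered 3 (75% called, against 62.3% of all genes tested), and their median was 0.08. The core subunit gene Fancb rose from 4.21, 4.94 and 4.96 CPM to 7.41, 7.41 and 7.6 CPM (0.66 ± 0.10, adjusted p = 1.13e-05). Fancg, another core subunit gene, rose from 12.3, 12.7 and 14.8 CPM to 18.5, 19.2 and 19.1 CPM (0.51 ± 0.08, adjusted p = 1.01e-05). Fancm, which encodes the translocase that anchors the core complex to DNA, rose from 40.4, 40.5 and 33.4 CPM to 56.6, 53.8 and 54.2 CPM (0.53 ± 0.07, adjusted p = 7.94e-07). None of these groups overlapped. Fancl, the ubiquitin ligase gene, fell 1.42-fold (−0.51 ± 0.11, adjusted p = 0.000404), from 5.8 ± 0.476 to 4.1 ± 0.398 CPM (SD, n = 3). Fancf (−0.32 ± 0.13, adjusted p = 0.0369) and Fance (−0.23 ± 0.09, adjusted p = 0.0379) fell as well, but neither was called without DMSO replicate 3, without DZNep replicate 2, by DESeq2 or when other groups were left out of the fit. Fancf was also not called without DZNep replicate 1, nor Fance without DZNep replicate 3, with adjusted p up to 0.349 for Fancf and 0.277 for Fance. Fanca stood at −0.05 ± 0.06 and Fancc at 0.21 ± 0.10 (adjusted p = 0.0587). On the other strand, exons of Vrk2 cover 13.7% of the Fancl exon bases, those of Gas2 15% of Fancf and those of Zfp276 10.5% of Fanca, and Gm16133 covers 16.4% of Fancc.

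Of the genes for the FANCD2-FANCI clamp, Fanci was called with DZNep and Fancd2 was not. Fanci rose from 25.9, 26.5 and 26.3 CPM to 37.1, 36.9 and 35.4 CPM (0.48 ± 0.06, adjusted p = 3.1e-07). Fancd2 stood at 78 ± 3.24 CPM in DMSO and 76.3 ± 2.97 CPM with DZNep (−0.03 ± 0.05, 95% interval −0.13 to 0.07). The intervals of these log2 changes do not meet, though the difference between the genes was not itself tested. Polg on the other strand covers 16% of the Fanci exon bases.

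All 4 junction-processing genes rose with DZNep, which called 31.2% of all genes tested upward. Mus81, the catalytic subunit of a structure-specific nuclease, read 6.02, 5.92 and 6.53 CPM in DMSO and 10.8, 9.96 and 10.7 CPM with DZNep (1.69-fold, 0.76 ± 0.08, adjusted p = 9.14e-08). Its partner Eme1 rose 1.3-fold (0.38 ± 0.08, adjusted p = 0.000229). The helicase gene Blm rose by 0.25 ± 0.07 (adjusted p = 0.00431) and the nuclease scaffold gene Slx4 by 0.21 ± 0.06 (adjusted p = 0.00348) on the log2 scale. Of the 5 end-resection genes 3 rose (60% called, near the 62.3% of all genes tested). Rad50 (chromosome 11, 53649519 to 53707319) read 182, 187 and 152 CPM in DMSO and 309.8, 281 and 260.4 CPM with DZNep, with no overlap (1.64-fold, 0.71 ± 0.08, adjusted p = 3.15e-07). Exo1, a 5′ to 3′ exonuclease gene, rose by 0.34 ± 0.06 (adjusted p = 5.55e-05) and Nbn by 0.29 ± 0.06 (adjusted p = 0.000262). Mre11a, the nuclease of the complex, stood at 0.05 ± 0.05 (95% interval −0.04 to 0.15) and Rbbp8 at 0.04 ± 0.06 (−0.08 to 0.15).

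**Figure D2:**
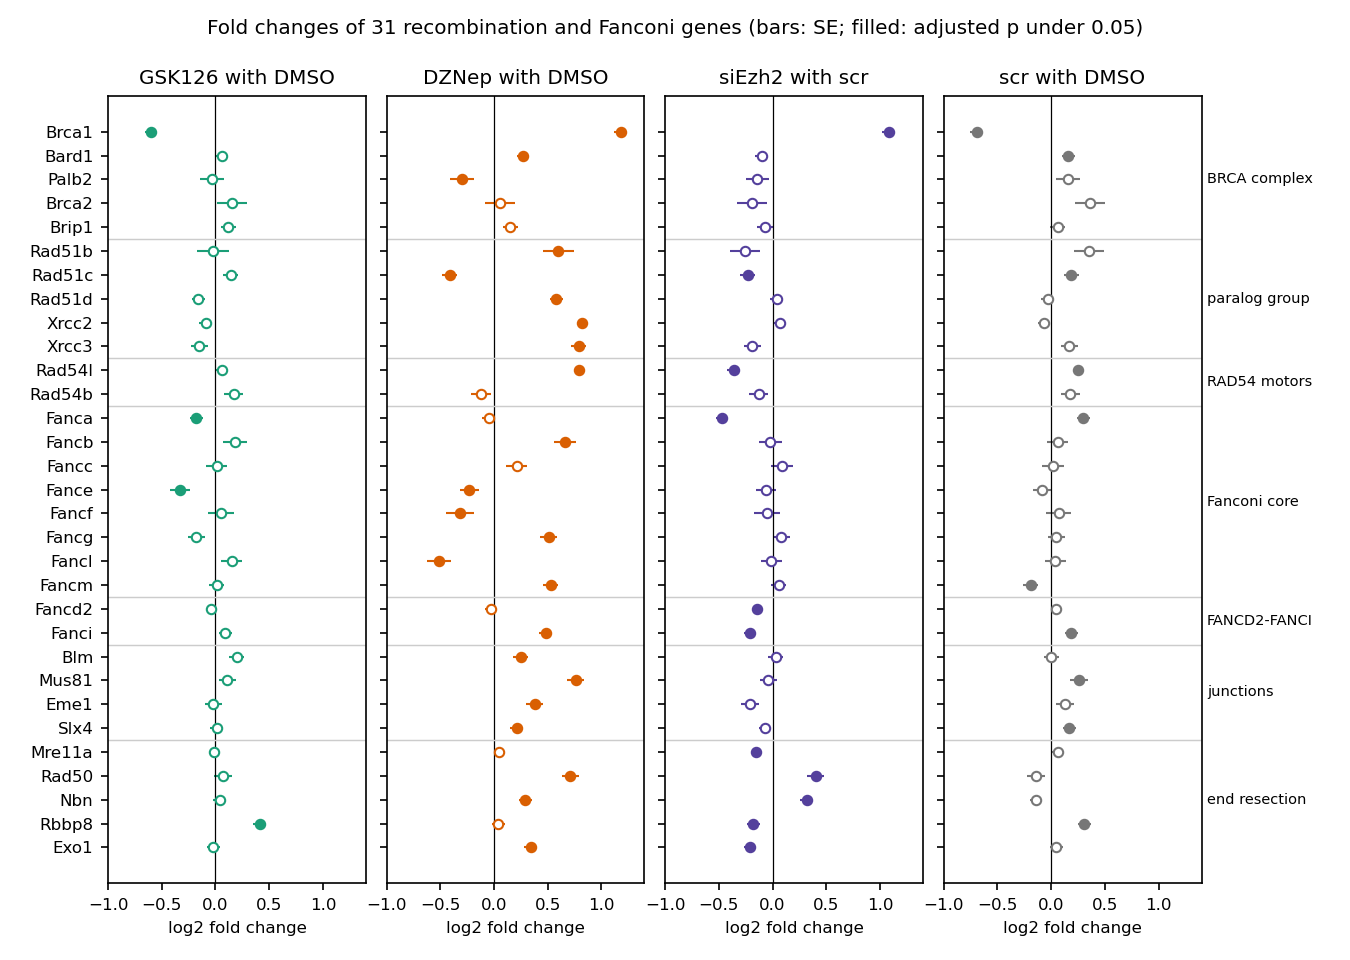
Log2 fold change (x axis) of each of the 31 genes (y axis, grouped by role) in 4 comparisons, with bars of 1 standard error and filled points where the adjusted p was under 0.05. With DZNep 23 points are filled, with GSK126 4, with siEzh2 against scr 11 and in scr against DMSO 10; Brca1 is the point farthest from 0 in each panel.

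With GSK126 the share of these genes called, 12.9%, was near that of all genes. Of 31, 1 rose and 3 fell (edgeR, adjusted p under 0.05), where 12.7% of all genes tested were called, 7.15% upward and 5.54% downward, and the median change of the 31 was 0.01, against −0.01 over all genes. Brca1 fell 1.52-fold (−0.60 ± 0.06, adjusted p = 3.02e-07). Its GSK126 libraries read 198, 185 and 185 CPM, all below the DMSO libraries at 268 to 300.3 CPM. Rbbp8, which encodes the resection factor CtIP, rose 1.33-fold (0.41 ± 0.06, adjusted p = 7.67e-05). It stood at 57, 54.6 and 54.8 CPM with GSK126 and 42.3, 44.2 and 39 CPM in DMSO, again with no overlap. The libraries were separate upward for 3 of the 31 and downward for 5, against 15.6% and 15.1% of all genes. Among these were Rad51c, Blm, Rad51d and Xrcc2, which were not called.

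Melanocyte markers moved in the same comparison, with 3 of 7 lower, Pmel (−0.55), Mlana (−0.44) and Tyrp1 (−0.21), and of 5 fibroblast markers Col1a2 was higher (0.91) and Col1a1 lower (−0.93); their part in the result was not tested. The other calls with GSK126 among the 31 were those of Fanconi core genes. Fance read 13.7, 13.1 and 16.6 CPM in DMSO and 10.6, 12 and 12.1 CPM with GSK126 (−0.33 ± 0.09, adjusted p = 0.0247). Fanca read 43.1, 43.8 and 45.1 CPM in DMSO and 40.5, 37.2 and 38.5 CPM with GSK126 (−0.18 ± 0.06, adjusted p = 0.0414). Neither gene's groups overlapped, a separation seen downward in 15.1% of all genes tested. Neither call held without DMSO replicate 3, without GSK126 replicate 2 or when other groups were left out of the fit, each of which left 2 genes called (Brca1 and Rbbp8). Fanca was also not called without DMSO replicate 2, without GSK126 replicate 3 or with library totals alone as the scaling (adjusted p up to 0.163), nor Fance without GSK126 replicate 1 (adjusted p up to 0.162), the library whose name number lies beside those of the siRNA arm. The 27 uncalled genes had log2 changes between −0.18 and 0.20. Among them were Brca2 (0.15), Bard1 (0.06), Palb2 (−0.03), Brip1 (0.12), Rad51b (−0.02), Rad51c (0.14), Rad51d (−0.16), Xrcc2 (−0.09) and Xrcc3 (−0.15). Rad54l stood at 0.06, Rad54b at 0.17, Fancb at 0.18, Fancc at 0.01, Fancf at 0.05, Fancg at −0.18, Fancl at 0.15, Fancm at 0.01, Fancd2 at −0.04 and Fanci at 0.09. The junction genes Blm, Mus81, Eme1 and Slx4 stood at 0.20, 0.11, −0.02 and 0.01, and Mre11a, Rad50, Nbn and Exo1 at −0.01, 0.07, 0.04 and −0.02.

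Against its scrambled control, siEzh2 had 3 of the genes higher and 8 lower (edgeR, adjusted p under 0.05), where 26.1% of all genes tested were called, 13.2% upward and 12.9% downward. The median of the 31 was −0.07, against −0.01 over all genes. Brca1 rose 2.12-fold, from 180.0, 183 and 173 CPM in scr to 403, 358 and 375 CPM with siEzh2 (1.08 ± 0.06, adjusted p = 2.62e-11). Rad50 rose from 147, 163 and 163 CPM to 213, 215 and 197 CPM (0.40 ± 0.08, adjusted p = 0.000865). Nbn rose from 26.6, 27 and 29.8 CPM to 36, 34.4 and 33.4 CPM (0.32 ± 0.06, adjusted p = 0.000546). For these 3 genes every siEzh2 library lay above every scr library, as for 20.2% of all genes tested; downward the libraries were separate for 12 of the 31, against 21.6% of all genes. All 7 melanocyte markers rose in the same comparison, their sum going from 18904 to 19999 CPM in scr to 24070.2 to 25531 CPM, and 3 of 5 fibroblast markers rose; their part in the result was not tested.

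Among the lower genes, Fanca fell 1.38-fold (−0.47 ± 0.06, adjusted p = 4.95e-06), from 53.6, 51 and 58 CPM in scr to 40.3, 38.3 and 39.2 CPM. Rad54l fell from 32.6, 35.5 and 35.7 CPM to 27.3, 25.6 and 27.8 CPM (−0.36 ± 0.06, adjusted p = 5.76e-05). Fanci fell from 30, 29.9 and 30 CPM to 26.2, 24.9 and 27 CPM (−0.21 ± 0.06, adjusted p = 0.00957). None of these groups overlapped. Rad51c (−0.23), Exo1 (−0.21), Rbbp8 (−0.18), Mre11a (−0.15) and Fancd2 (−0.14) completed the 8, with adjusted p from 0.0128 for Exo1 to 0.043 for Fancd2. The total was 6 without scr replicate 2 and 7 without siEzh2 replicate 2, where Fanci was among those lost (adjusted p = 0.0555). Brca1, Rad50, Nbn, Fanca and Rad54l were called whichever library was left out. The 20 uncalled genes lay between −0.26 (Rad51b) and 0.09 (Fancc). They were Bard1 (−0.10), Palb2 (−0.14), Brca2 (−0.19), Brip1 (−0.07), Rad51d (0.04), Xrcc2 (0.07), Xrcc3 (−0.19), Rad54b (−0.13), Fancb (−0.02), Fance (−0.06), Fancf (−0.05), Fancg (0.08), Fancl (−0.01), Fancm (0.06), Blm (0.03), Mus81 (−0.04), Eme1 (−0.21) and Slx4 (−0.07), beside those at the ends.

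The scrambled control itself differed from DMSO across all genes, and 32.3% of this set were called. In scr 8 genes were higher and 2 lower than in DMSO (edgeR, adjusted p under 0.05), where 25.9% of all genes tested were called, 12.2% higher and 13.6% lower. The libraries were separate upward for 13 of the 31 and downward for 2, against 18.4% and 19% of all genes. Brca1 was 1.61-fold lower in scr, at 180.0, 183 and 173 against 268 to 300.3 CPM in DMSO (−0.69 ± 0.06, adjusted p = 2.21e-08). Fanca was higher (0.30 ± 0.06, adjusted p = 0.000589), at 53.6, 51 and 58 against 43.1 to 45.1 CPM, and so was Rbbp8, at 50.1, 53 and 51.7 CPM against 39 to 44.2 CPM in DMSO (0.31 ± 0.06, adjusted p = 0.000606). Rad54l stood at 0.25, Mus81 at 0.26, Fanci at 0.19, Rad51c at 0.19, Slx4 at 0.17, Bard1 at 0.16 and Fancm at −0.19; of these, all but Rad54l lost the call in 2 or more of the other fits, and without scr replicate 1 or scr replicate 2 the total was 5. Library name numbers also separate the siRNA libraries from all compound libraries but GSK126 replicate 1, so arm and treatment cannot be told apart. Of 7 melanocyte markers 1 was higher and 5 were lower in scr than in DMSO.

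Set against DMSO instead of scr, siEzh2 had 2 genes called, both higher, where 14.2% of all genes tested were called, 6.41% upward and 7.76% downward. This comparison was added after the data were seen, and both comparisons use the same siEzh2 libraries. Brca1 remained higher (0.40 ± 0.06, adjusted p = 6.81e-05), as did Rad50 (0.26 ± 0.08, adjusted p = 0.0323). Nbn stood at 0.18 (adjusted p = 0.0566), Fanca at −0.17 (adjusted p = 0.0637), Exo1 at −0.16 (adjusted p = 0.0791), Rad54l at −0.11 (adjusted p = 0.222) and Fanci at −0.01 (adjusted p = 0.918). Rbbp8 turned to 0.13 (adjusted p = 0.164). The median of the 31 was 0.02.

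**Figure D3:**
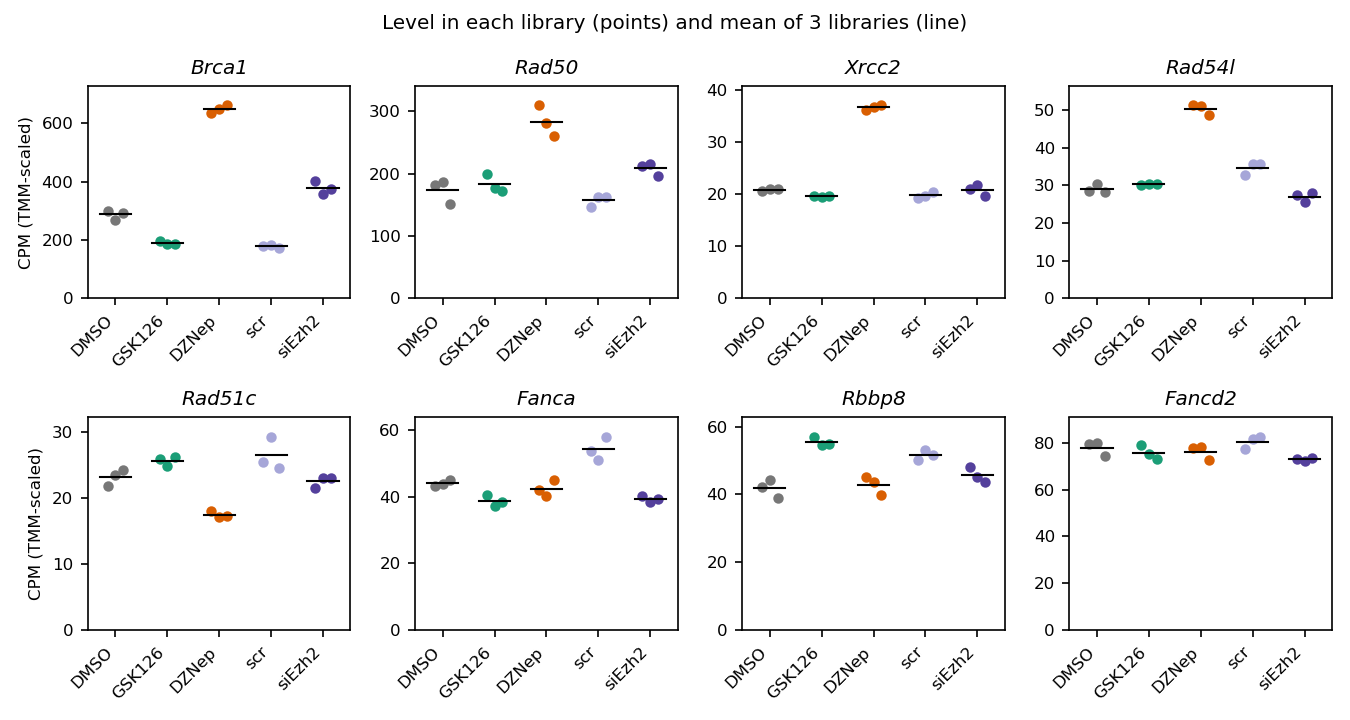
CPM in each library (points) with the mean of 3 (line) for 8 genes in the 5 groups, each panel with its own axis from 0. Brca1 runs from 173 CPM in scr to 662 CPM with DZNep, the DMSO means of Fanca and Rad54l lie between those of scr and siEzh2, and Fancd2 stays between 72.2 and 82.7 CPM.

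The Brca1 means ran 179 ± 5.48 CPM in scr, 189 ± 7.3 with GSK126, 287 ± 17.1 in DMSO, 379 ± 22.5 with siEzh2 and 649 ± 12.7 with DZNep (SD, n = 3 each). The libraries of neighbouring groups in this order did not overlap, with the smallest gap between scr (up to 183 CPM) and GSK126 (from 185 CPM), a pair that was not tested. Nbr1, whose start lies 194 bases from that of Brca1 on the other strand, was lower with DZNep, where Brca1 rose, and moved in the direction of Brca1, by less, in both siRNA comparisons. Nbr1 stood at −0.30 ± 0.05 with DZNep (adjusted p = 5.88e-05), −0.11 with GSK126 (adjusted p = 0.206), 0.19 with siEzh2 against scr (adjusted p = 0.012) and −0.28 for scr when compared with DMSO (adjusted p = 0.000695). Vat1, 22534 bases past the other end of Brca1, stood at 0.30, −0.28, 0.33 and −0.26 in those comparisons, and Rnd2, 16911 bases away, at 0.06, −0.10, −0.55 and 0.41.

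A start placed head to head with another gene was common in the set. With 5′ ends at most 1000 bases apart on opposite strands, 11 of the 31 genes (35.5%) had a tested coding partner, against 15.5% of 12426 tested coding genes. DZNep called 62.3% of all genes tested, and calls were not counted for the other head-to-head pairs. With DZNep both genes of a pair were called in the same direction in 4 pairs. These were Rad51b with Zfyve26 (0.60 and 0.78), Rad54l with Pomgnt1 (0.79 and 0.27), Eme1 with Mrpl27 (0.38 and 0.45) and Fancf with Gas2 (−0.32 and −0.65). The Fancf call was lost in 5 of 12 other fits. Exons of Gas2 cover 15% of the Fancf exon bases, and those of Mrpl27 cover 2.72% of Eme1. Brca1 and Nbr1 were called in opposite directions. In 4 pairs only the listed gene was called, as for Xrcc3 (0.79) beside Zfyve21 (0.03) and Fancb (0.66) beside Mospd2 (−0.16). In 1 pair only the partner was called, Ankrd49 (−0.39) beside Mre11a (0.05), and Fancd2 with Emc3 had no call.

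**Figure D4:**
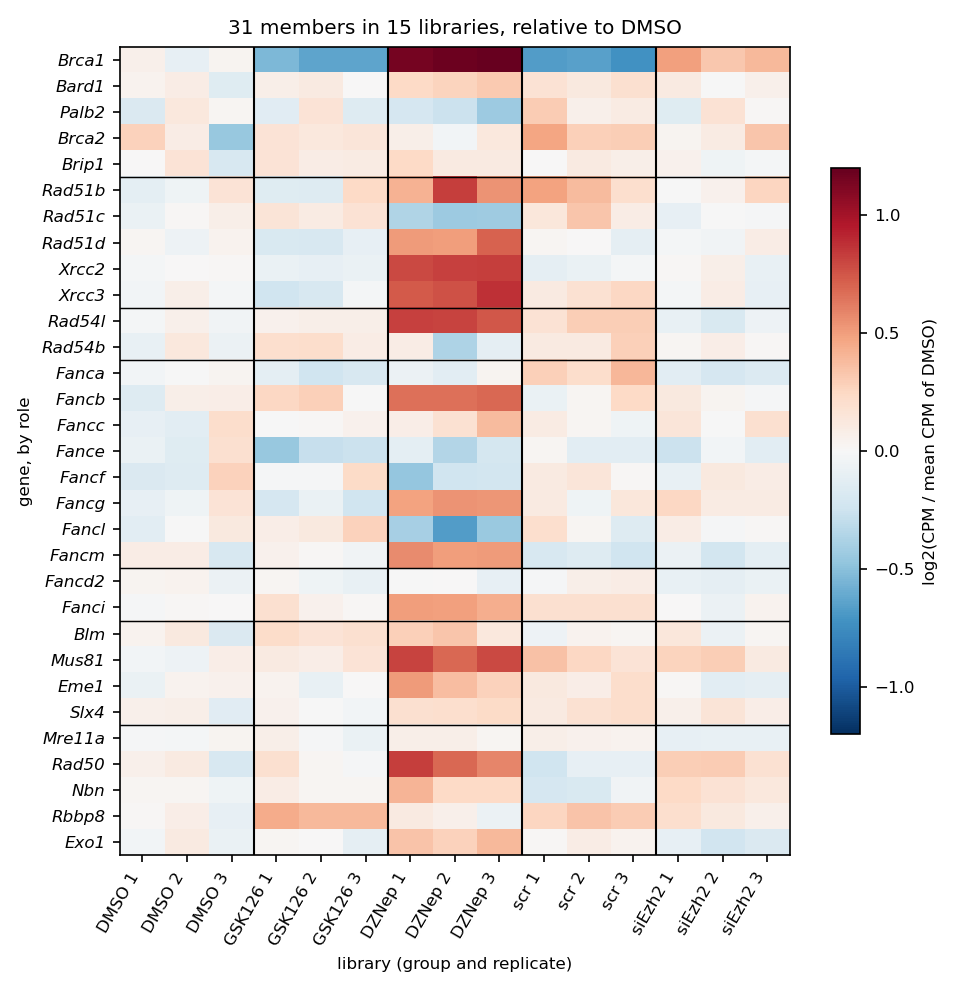
Log2 of CPM over the DMSO mean for the 31 genes (rows, by role) in 15 libraries (columns), red above and blue below DMSO. The DZNep columns are red for most rows and blue for Rad51c and Fancl, the Brca1 row is blue in GSK126 and scr and red in siEzh2 and DZNep, and Rbbp8 is red in GSK126 and scr.

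The knockdown and the inhibitor act on the same enzyme, so their effects, each against its own control, were compared directly. The difference was called for 8 of 31 genes, 3 higher and 5 lower with siEzh2, where 20.7% of all genes tested were called, 10.1% and 10.5% in those directions. Brca1 had the largest difference, 1.69 ± 0.08 (adjusted p = 8.99e-12), since it rose with siEzh2 and fell with GSK126. Rbbp8 had a difference of −0.59 ± 0.08 (adjusted p = 3.03e-05) and Rad54l of −0.42 ± 0.08 (adjusted p = 0.000521). With DMSO in place of scr the controls cancel, so that siEzh2 is set directly against GSK126, across arms that cannot be told apart from the treatments. There 4 genes were called, 3 of them among the 8, namely Brca1 at 1.00 (adjusted p = 1.64e-10), Rbbp8 at −0.28 (adjusted p = 0.00169) and Rad54l at −0.17 (adjusted p = 0.0392).

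DZNep and GSK126 were given at the same 2 µM dose, and 23 of the 31 genes differed between them. With DZNep 17 were higher and 6 lower, where 64.6% of all genes tested were called, 32.9% and 31.7% in those directions. The libraries were separate upward for 18 of the 31 and downward for 6, against 35.8% and 34.7% of all genes. Brca1 differed by 1.78 ± 0.06, Xrcc3 by 0.94 ± 0.08, Xrcc2 by 0.90 ± 0.05 and Rad51d by 0.73 ± 0.06. The lower genes were Fancl (−0.66 ± 0.11), Rad51c (−0.55 ± 0.07), Rbbp8 (−0.37 ± 0.06), Fancf (−0.37 ± 0.13), Rad54b (−0.29 ± 0.09) and Palb2 (−0.27 ± 0.11). Of these, Palb2 was not called without DZNep replicate 2, DZNep replicate 3 or GSK126 replicate 2 (adjusted p up to 0.271), Fancf without DZNep replicate 1 or GSK126 replicate 3 (up to 0.0941) and Rad54b without DZNep replicate 2 (0.0817). For Fancd2 the difference was 0.01, with a 95% interval of −0.09 to 0.11, and for Mre11a it was 0.06 (−0.04 to 0.16). The compounds share the DMSO libraries in the comparisons above but not in this one.

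Other genes of the pathway, from a list of 49 with 47 tested, were also tested (Dmc1 had too few counts and Hrob was not matched). With DZNep 27 of 47 rose and 13 fell (85.1% called, against 62.3% of all genes tested), with a median of 0.34. Rtel1, a helicase that unwinds recombination intermediates, rose by 1.08 ± 0.05 (adjusted p = 1.15e-12) and the recombination gene Fignl1 by 0.86 ± 0.05 (adjusted p = 1.39e-11). Rpa1, of the single-strand binding protein, rose by 0.58 ± 0.05, Top3a, the topoisomerase partner of BLM, by 0.80 ± 0.07, the resolvase gene Gen1 by 0.63 ± 0.05 and the resection nuclease gene Dna2 by 0.78 ± 0.07. With GSK126 0 rose and 2 fell (Helq at −0.32 and Rfwd3 at −0.17), 9 of 47 having an unadjusted p under 0.05. These 2 calls are 4.26% of the list, below the 12.7% of all genes tested. With siEzh2 against scr 3 rose and 15 fell (38.3% called, against 26.1% of all genes tested), with a median of −0.11. Against DMSO, 1 rose and 4 fell with siEzh2 (10.6% called, below the 14.2% of all genes tested).

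Damage signalling, end joining and mismatch repair genes were called with DZNep at 68.8%, 58.8% and 28.6%, against 62.3% of all genes tested. The share called upward was above the 31.2% of all genes tested for signalling and end joining genes, and below it for mismatch repair genes. Of 16 signalling genes 9 rose and 2 fell with DZNep, among them the checkpoint kinase gene Chek2 (0.70 ± 0.05), Clspn (0.56 ± 0.05) and Rad9a (0.72 ± 0.08). Of 17 end joining genes 8 rose and 2 fell, with a median of 0.09; Parp1 stood at 0.42 ± 0.06, the polymerase gene Polm at 0.37 ± 0.06 and Lig4, the ligase of that route, at −0.25 ± 0.05. Of 7 mismatch repair genes 2 rose, Msh3 (0.41 ± 0.06) and Pms1 (0.20 ± 0.07).

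Cell cycle genes moved in the same direction with DZNep. Of 22 S phase genes 16 rose and 1 fell (77.3% called, against 62.3% of all genes tested), with a median of 0.29. By p the leading genes were Rrm2 (0.74 ± 0.05) and Cdc6 (0.68 ± 0.05), and their summed level lay between 2327 and 2574 CPM in DMSO and between 3070.2 and 3143 CPM with DZNep. For G2 and M phase, 17 of 20 genes rose (85% called), with a median of 0.39, and those with the smallest p were Ccnb1 (0.59 ± 0.05) and Aurkb (0.54 ± 0.05). Cdkn1a, the cell cycle inhibitor p21 and a p53 target, rose from 119.8, 124 and 116 to 642, 656 and 736 CPM (2.50 ± 0.07, adjusted p = 1.1e-16). All 6 listed p53 targets, Cdkn1a among them, rose. With siEzh2 against scr 13 of 22 S phase genes fell, and against DMSO 5 fell. Of the 20 G2 and M phase genes 3 fell against scr and 9 against DMSO, with medians of −0.07 and −0.16. Of all genes tested, 12.9% were called lower with siEzh2 against scr and 7.76% against DMSO. For S phase genes, in scr against DMSO 9 were higher and 1 lower (45.5% called, against 25.9% of all genes tested). With GSK126 0 of 22 S phase genes were called by edgeR, with 2 at an unadjusted p under 0.05. The part of the cell cycle genes in the changes of the 31 was not tested.

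**Figure D5:**
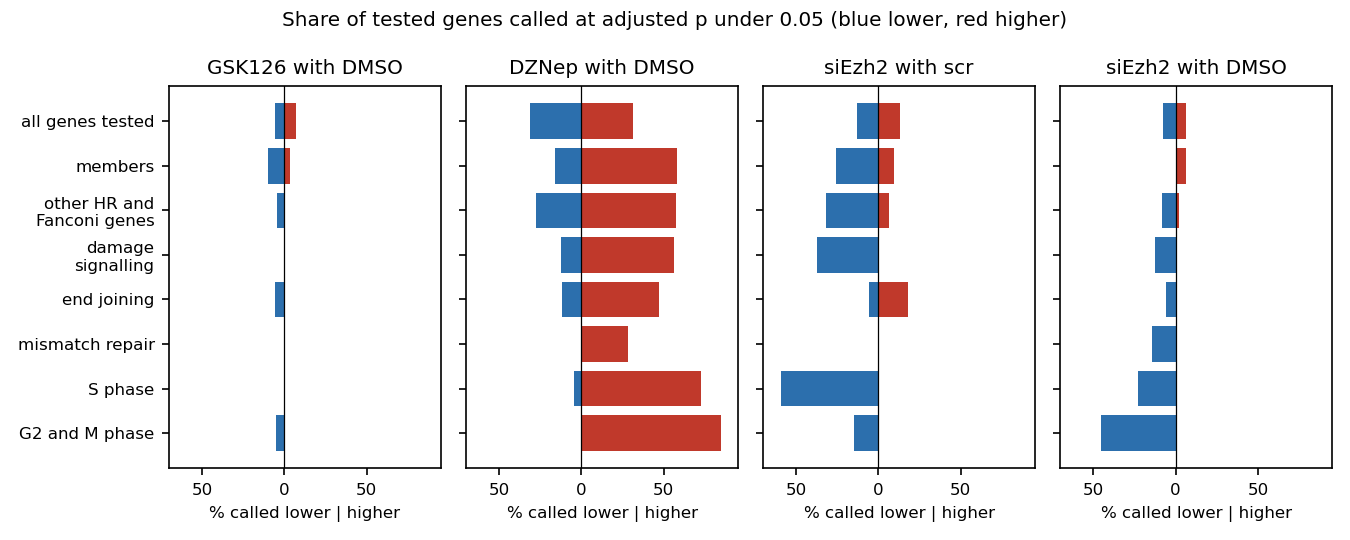
Share of tested genes called higher (red, right) or lower (blue, left), in percent, for all genes, the 31 genes and 6 other lists in 4 comparisons. With DZNep the red bars of the 31 genes and of every other list but mismatch repair are longer than that of all genes. The siEzh2 bars of the 31 genes are shorter against DMSO (2 called) than against scr (11 called).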

How the data were processed

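RNA was measured in 15 libraries, 3 per group, and each column was assigned by its library name. The authors deposited raw read counts per Ensembl gene. The submitters' processing notes name STAR, featureCounts and the build GRCm38. The sources used here give no versions, annotation or strand setting, so reads of overlapping genes cannot be told apart. Symbols, coordinates and exon lengths come from GENCODE M21 (45229 of 46078 identifiers matched).

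Counts were tested with edgeR 4.0.16 (R 4.3.3): the edgeR low-count filter, TMM, robust quasi-likelihood fits with a term per group over all 15 libraries, and Benjamini-Hochberg adjustment over 15152 genes. The common dispersion was 0.00409. The fit was tested on simulated counts with known changes. Replicates differed beyond sampling noise (chi-square per degree of freedom 5.96 to 38.8), and nothing says that they are separate cultures. The p-values therefore set group differences against the scatter of these samples only, which may be technical, and may not extend to new cultures. The 95% intervals use the normal approximation to the standard error.

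The 31 genes, the other lists (other pathway, signalling, end joining, mismatch repair, S phase, G2 and M phase, melanocyte, fibroblast, blood and endothelial genes, p53 targets) and the tests were chosen with earlier results of these data known. All 31 are named; values of every library are given for the 12 called genes with the smallest p with DZNep, at most 6 with GSK126 and siEzh2 and 3 in scr, and of other lists the called genes with the smallest p with DZNep are named (6, 3 or 2 by list). The 5 start regions, the head-to-head pairs and the neighbours of Brca1 were chosen after values were seen. Alternatives were other scalings (RLE, library totals), DESeq2 1.42.0, no low-count filter, only the compared groups, a replicate block and leaving out each library. A result that the naming rule would give for 1 further gene is not reported here.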

Additional observations from a re-analysis of the deposited data

Results flagged for a closer look

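The change with siEzh2 against scr and the change with GSK126 against DMSO differed, by the test of that difference in edgeR, for 8 of the 31 genes. The differences, siEzh2 minus GSK126 on the log2 scale, were 1.69 ± 0.08 for Brca1 (adjusted p = 8.99e-12), −0.59 ± 0.08 for Rbbp8 (adjusted p = 3.03e-05), −0.42 ± 0.08 for Rad54l (adjusted p = 0.000521) and −0.37 ± 0.09 for Rad51c (adjusted p = 0.00787). They were −0.29 ± 0.08 for Fanci (adjusted p = 0.0116), −0.28 ± 0.08 for Fanca (adjusted p = 0.0188), 0.27 ± 0.09 for Nbn (adjusted p = 0.028) and 0.33 ± 0.11 for Rad50 (adjusted p = 0.0451). Brca1, Rbbp8, Rad54l and Rad51c were called in all 18 other fits with another scaling, test or set of libraries, whereas Nbn (adjusted p up to 0.0727) and Rad50 (up to 0.114) each lost the call in 8 of 18. Fanca lost it without GSK126 replicate 1 or scr replicate 3 (up to 0.0772) and Fanci without GSK126 replicate 1 (0.0516). With DMSO in place of scr, which sets siEzh2 directly against GSK126 with no control and across the arms, the differences were smaller, at 1.00 for Brca1, −0.28 for Rbbp8 (adjusted p = 0.00169) and −0.17 for Rad54l (adjusted p = 0.0392), and Rad51c was not called (−0.18, adjusted p = 0.062), nor were Fanci, Fanca, Nbn and Rad50.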

How the results depend on the processing

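Of the genes called, 20 of 23 with DZNep, 2 of 4 with GSK126 (Brca1 and Rbbp8), 5 of 11 with siEzh2 and 4 of 10 in scr against DMSO kept their call in all 12 other fits per comparison, none of which turned a called gene's direction. Leaving out 1 library gave 21 to 24 calls with DZNep (median 0.27 to 0.31), 2 to 5 with GSK126, 6 to 10 with siEzh2, and 5 to 10 in scr against DMSO (median 0.06 to 0.11), 22 to 24 between the compounds and 6 to 8 between the siEzh2 and GSK126 effects. When other groups were left out of the fit, calls were 2 with GSK126 and 5 in scr against DMSO; with no low-count filter the latter had 6, and with library totals alone its median was 0.10. With DMSO as the control of siEzh2, added after the data were seen, 2 genes were called with a median of 0.02, and in the difference from GSK126, which then has no control, 4 genes with a median of 0.00; Rbbp8 turned from −0.18 to 0.13 and, in the difference, Fanca from −0.28 to 0.02, and the cause was not tested. With the replicate number as a replicate block, 24 genes were called with DZNep, 4 with GSK126, 11 with siEzh2, 9 in scr, 24 between the compounds and 8 in the difference between siEzh2 and GSK126; DESeq2 gave 21, 4, 10, 9, 22 and 8. Same-numbered libraries did not deviate together (correlations −0.17 to 0.15), so the numbers were not taken as pairs. Precision differed between genes: with DZNep the standard error was 0.14 for the low-level Rad51b and for Brca2, and 0.05 for Rad54l.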
